A study of Homo sapiens with 21 samples.

Results

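AGO2 and KHSRP were compared in 1 fPAR-CLIP library each, both digested with RNase I at 1.5 U/ul. These are 2 of the 21 samples of the series, which tested a PAR-CLIP protocol that needs no radioactive label. The AGO2 library held 2374 clusters with 335870 reads, and the KHSRP library held 27711 clusters with 200210 reads. Both came from Flp-In T-REx 293 cells, an established line derived from HEK293, that carried a stably integrated transgene for the FLAG-HA-tagged protein. Per the labels, the cells took up 4-thiouridine at 100 µM for 8 to 12 h and were crosslinked at 312 or 365 nm with 0.3 J/cm2, and the tagged protein was pulled down on anti-FLAG magnetic beads. For KHSRP the labels name lysis in RIPA buffer with sonication and RNase I at 0.1 U/ul. For cytoplasmic proteins they name NP40 buffer with RNase I as an option, and AGO2 is not placed by name. Protein and lysis therefore cannot be told apart, and a tagged transgene need not follow the endogenous protein in level or place.

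In PAR-CLIP, 4-thiouridine that is crosslinked to a protein appears in the reads as a T-to-C conversion, and reads with such conversions are gathered into clusters at bound sites. AGO2 is the Argonaute protein that carries mature microRNAs and pairs their seed with sites in mRNAs, mostly in 3' UTRs. KHSRP is a KH-domain protein found in nucleus and cytoplasm. It is known for splicing regulation, for decay of mRNAs with AU-rich elements, and for binding the terminal loop of some microRNA precursors during their processing.

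The values below are reads in clusters and shares of all reads in the clusters of that library. Reads outside clusters were not used here, and no cluster held fewer than 5 reads, so a gene given at 0 had no such cluster. Shares were not scaled to RNA length. With 1 library for each protein there was no replicate check. Intervals of shares are 95% Wilson intervals, and those of log2 ratios are 95% normal approximations from the 2 read counts. Both treat reads as independent counts and cover no other error. Amplified reads are not independent molecules, so the intervals can be too narrow even for counting error. The same proteins at 0.15 U/ul, in 1 separate library each, are set beside the results. There AGO2 had 2425 clusters with 295889 reads, and KHSRP had 178339 clusters with 2172248 reads. KHSRP shares at the 2 doses thus rest on unlike totals, and the part of library size in differences between doses was not tested.

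The mature microRNAs on which the comparison turned fall into groups by their seed, bases 2 to 8, shown in capitals. The sequences are from RefSeq (GRCh38.p14). The first 3 share 1 seed, and their genes were among the most heavily covered in the AGO2 library. The next 3 belong to hairpins that led the KHSRP library, and the last to a gene found in both.
hsa-miR-17-5p: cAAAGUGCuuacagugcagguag
hsa-miR-20a-5p: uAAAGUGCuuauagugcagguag
hsa-miR-106b-5p: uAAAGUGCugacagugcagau
hsa-miR-16-5p: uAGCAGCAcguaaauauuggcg
hsa-miR-19b-3p: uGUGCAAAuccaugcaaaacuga
hsa-miR-92a-3p: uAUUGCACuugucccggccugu
hsa-miR-301a-3p: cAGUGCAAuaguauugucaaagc

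The hairpins show which stretch of a precursor each library covered. For MIR16-1 (chr13:50048973-50049061, minus strand), the mature arms are in capitals in the first line and the KHSRP cluster with the most reads in the second. The AGO2 library had no cluster there.
MIR16-1 arms: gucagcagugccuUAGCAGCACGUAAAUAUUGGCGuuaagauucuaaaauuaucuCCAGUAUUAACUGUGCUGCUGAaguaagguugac
MIR16-1 KHSRP: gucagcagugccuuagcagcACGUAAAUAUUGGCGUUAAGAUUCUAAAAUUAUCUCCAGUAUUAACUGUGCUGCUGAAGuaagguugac

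MIR19B1 (chr13:91351192-91351278, plus strand) was covered in both libraries. Capitals mark the arms, then the AGO2 and the KHSRP cluster with the most reads.
MIR19B1 arms: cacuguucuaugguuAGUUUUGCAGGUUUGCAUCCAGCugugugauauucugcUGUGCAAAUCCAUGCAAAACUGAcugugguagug
MIR19B1 AGO2: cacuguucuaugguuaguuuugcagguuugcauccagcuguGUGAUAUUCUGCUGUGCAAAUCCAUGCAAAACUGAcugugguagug
MIR19B1 KHSRP: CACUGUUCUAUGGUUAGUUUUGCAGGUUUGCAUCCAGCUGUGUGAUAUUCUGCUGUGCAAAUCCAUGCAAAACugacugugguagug

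MIR20A (chr13:91351065-91351135, plus strand) shows a hairpin where both libraries held a single cluster across both arms. Capitals mark the arms and then each library's cluster.
MIR20A arms: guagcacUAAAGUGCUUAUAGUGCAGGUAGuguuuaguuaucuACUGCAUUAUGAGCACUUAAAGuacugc
MIR20A AGO2: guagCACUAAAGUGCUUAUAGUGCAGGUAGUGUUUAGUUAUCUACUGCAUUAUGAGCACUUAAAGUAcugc
MIR20A KHSRP: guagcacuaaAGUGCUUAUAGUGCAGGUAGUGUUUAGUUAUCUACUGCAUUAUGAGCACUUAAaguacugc

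The AGO2 library was dominated by short structured RNAs and the KHSRP library by introns. The deposited microRNA class held 44.5% of AGO2 reads and 0.961% of KHSRP reads. Introns held 15.1% of AGO2 clusters (interval 13.7 to 16.6%) and 73.1% of KHSRP clusters (72.6 to 73.6%). The 3' UTR class held 29.8% of AGO2 clusters (28 to 31.7%) and 8.77% of KHSRP clusters (8.44 to 9.11%), but by reads the order turned, with 2.50% in AGO2 and 10.3% in KHSRP. Coding regions held 12.3% of AGO2 clusters and 1.87% of KHSRP clusters. In the 0.15 U/ul pair the 3' UTR class held 38.7% of AGO2 clusters and 8.65% of KHSRP clusters, and introns 10.5% of AGO2 and 79.1% of KHSRP clusters. The libraries also differed in how reads were spread. The 10 largest clusters held 48.1% of AGO2 reads and 1.93% of KHSRP reads, and distinct read sequences made up 68.1% of AGO2 reads and 25.2% of KHSRP reads.

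**Figure D1:**
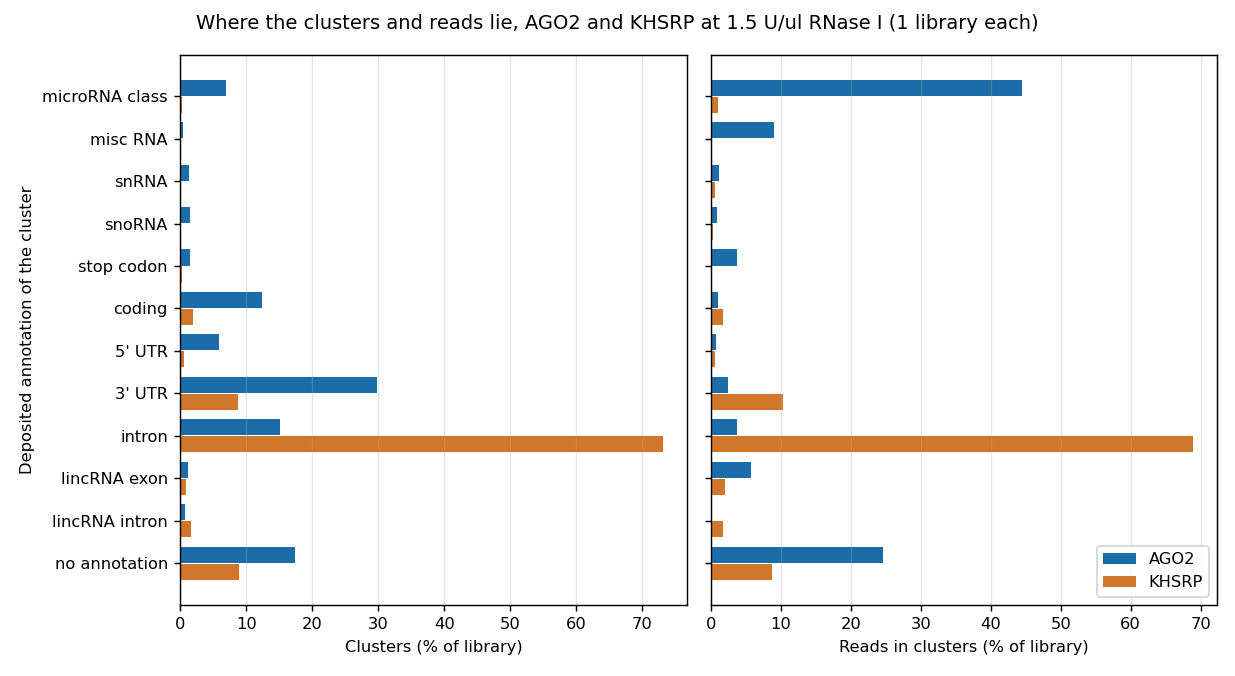
Share of clusters (left, % of library) and of reads in clusters (right, % of library) by the deposited annotation class, AGO2 above KHSRP in each pair of bars, 1 library each. The AGO2 bars are longest in the 3' UTR class by clusters (29.8%) and in the microRNA class by reads (44.5%), while introns hold 73.1% of KHSRP clusters.

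Clusters at named microRNA genes were frequent in the AGO2 library and few in the KHSRP library. They covered 142 genes with 145195 reads in AGO2, which was 43.2% of its reads, and 41 genes with 1839 reads in KHSRP, which was 0.919%. At 0.15 U/ul the shares were 31.5% in AGO2 and 0.0882% in KHSRP, where KHSRP had 1916 such reads of 2172248. FUBP3, another KH-domain protein of the series, had 0.00605% of its reads at microRNA genes at 1.5 U/ul. CPSF1, a further protein of the series, had 0.716% at 0.5 U/ul, where KHSRP had 0.176%. In both AGO2 and KHSRP there were 19 microRNA genes, which is 13.4% of those in AGO2 and 46.3% of those in KHSRP. These 19 genes held 51.1% of the microRNA reads of AGO2 and 39.3% of those of KHSRP.

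Of the 19 shared microRNA genes, 15 had a read share more than 2-fold higher in AGO2, 1 was more than 2-fold higher in KHSRP and 3 were within 2-fold. Over the 118 genes of any kind with at least 20 reads in each library, 16.1% were past 2-fold in AGO2 and 39.8% past 2-fold in KHSRP. The median log2 ratio of read shares, AGO2 over KHSRP, was 4.78 for the shared microRNA genes and -0.66 for the 118 genes.

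MIR93, MIR20A and MIR17, whose microRNAs belong to the miR-17 seed family, had the widest gaps. MIR93 had 22487 reads in AGO2 and 19 in KHSRP, a log2 ratio of 9.46. MIR20A had 19387 reads in AGO2 and 59 in KHSRP, a log2 ratio of 7.61 with a counting interval of 7.25 to 7.98. MIR17 had 15673 in AGO2 and 49 in KHSRP (7.57). Outside the family, MIR140 came next with 1593 reads in AGO2 and 9 in KHSRP (6.72), and MIR301A with 3672 in AGO2 and 25 in KHSRP (6.45). MIR106B, a further gene of the miR-17 family, had 4072 in AGO2 and 31 in KHSRP (6.29). Below it lay MIRLET7F2 with 837 in AGO2 and 9 in KHSRP (5.79) and MIR221 with 1530 in AGO2 and 21 in KHSRP (5.44).

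Members of the let-7 family, which is known to be processed with the help of KHSRP, were spread along the same scale. MIRLET7F1 had 1106 reads in AGO2 and 22 in KHSRP (log2 ratio 4.91), and MIRLET7A1 had 527 in AGO2 and 38 in KHSRP (3.05). MIRLET7I had 154 in AGO2 and 18 in KHSRP (2.35), while MIRLET7C had 19 in AGO2 and 14 in KHSRP (-0.31). The let-7 genes in both libraries thus ran from a large excess in AGO2 to near equal shares. MIRLET7A3 had 2841 reads in AGO2 and 0 in KHSRP, and MIRLET7G had 0 in AGO2 and 7 in KHSRP.

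MIR19B1 stood apart among well-covered shared genes, because its shares in the libraries were near each other. It had 900 reads in AGO2 and 293 in KHSRP, a log2 ratio of 0.87 with a counting interval of 0.68 to 1.06. It was the second most covered microRNA gene of the KHSRP library. MIR103A2 was the shared gene past 2-fold in KHSRP, with 16 reads in AGO2 and 29 in KHSRP (-1.60). In the 0.15 U/ul pair MIR19B1 had 877 reads in AGO2 and 235 in KHSRP, a log2 ratio of 4.78. Its shares were thus near each other at 1.5 U/ul and far apart at 0.15 U/ul. All reads in KHSRP clusters numbered 200210 at 1.5 U/ul and 2172248 at 0.15 U/ul.

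**Figure D2:**
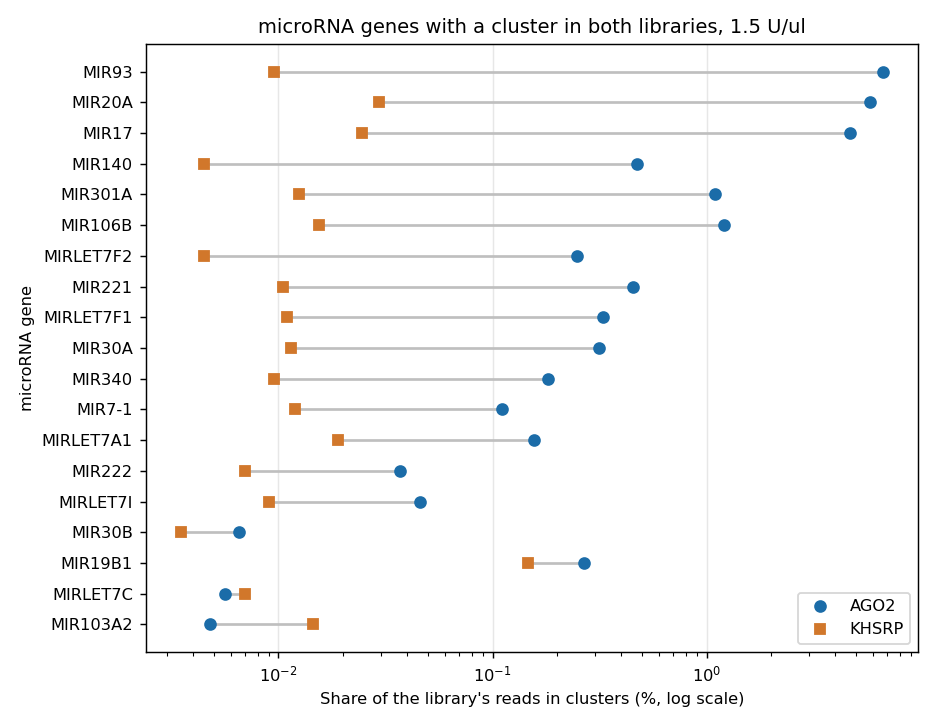
Share of reads in clusters (%, log scale) of the 19 microRNA genes with a cluster in both libraries, circles for AGO2 and squares for KHSRP, ordered by their log2 ratio. MIR93, MIR20A and MIR17 lie at the top with AGO2 shares between 4.67% and 6.70%, while MIR19B1 has the highest KHSRP share (0.146%).

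The hairpins that led the KHSRP library were largely without a cluster in AGO2. MIR16-1 had 0 reads in AGO2 and 514 in KHSRP, and MIR16-2 had 0 in AGO2 and 168 in KHSRP. Together they held 37.1% of KHSRP microRNA reads. MIR92A1 had 0 in AGO2 and 140 in KHSRP, and MIR19A had 0 in AGO2 and 105 in KHSRP. These 4 hairpins were at 0 in the AGO2 library at 0.15 U/ul too, while KHSRP at 0.15 U/ul had 392 reads at MIR16-1, 118 at MIR16-2, 112 at MIR92A1 and 148 at MIR19A. FUBP3 at 1.5 U/ul had 6 reads at MIR92A1 and 0 at the other 3. CPSF1 at 0.5 U/ul had 64 reads at MIR16-2, 47 at MIR19A, 6 at MIR92A1 and 0 at MIR16-1.

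The mature sequences of MIR16-1, MIR16-2, MIR19B1 and MIR92A1 each have 2 genomic copies in the RefSeq table, whereas those of MIR19A and MIR18A have a single copy. MIR18A had 0 reads in AGO2 and 29 in KHSRP. Genes with a mature sequence in several places held 7.14% of AGO2 microRNA reads and 68.5% of KHSRP microRNA reads. How reads that match several places were treated is not given in the sources used here, and its part in the missing AGO2 clusters was not tested.

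MIR17, MIR18A, MIR19A, MIR20A, MIR19B1 and MIR92A1 are cut from 1 primary transcript, the miR-17-92 host RNA. Together they held 35960 reads in AGO2, 24.8% of its microRNA reads, and 675 reads in KHSRP, 36.7% of its microRNA reads. Within the transcript the libraries favoured different hairpins. In AGO2 the reads lay at MIR20A, MIR17 and MIR19B1, with no cluster at the other 3. In KHSRP all 6 had a cluster, led by MIR19B1, MIR92A1 and MIR19A. Outside the hairpins, the host gene MIR17HG had 0 clusters in AGO2 and 6 in KHSRP, with 77 reads.

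Of the 22 microRNA genes with a cluster in KHSRP and none in AGO2, MIR331 had 24 reads in KHSRP, MIR103A1 had 18 and MIRLET7D 14. MIR331 and MIRLET7D did have AGO2 clusters at 0.15 U/ul, of 284 and 68 reads. Among the 123 genes in AGO2 without a KHSRP cluster, MIR320A led with 26982 reads, the largest cluster of the library. MIR182 followed with 8618, MIRLET7A3 with 2841 and MIR32 with 2423. MIR320A and MIR182 had no KHSRP cluster at any of the 3 RNase I doses.

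The list of microRNA genes reported to need KHSRP for their processing had 11 members. Of these, 6 had a cluster in AGO2, 4 in KHSRP and 2, MIRLET7A1 and MIR20A, in both. MIR26B had 768 reads in AGO2 and 0 in KHSRP, and MIR27B had 314 in AGO2 and 0 in KHSRP. Over all microRNA genes with a cluster, 123 were in AGO2 alone, 22 in KHSRP alone and 19 in both. A split between the libraries was thus not particular to the list.

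The position of clusters within hairpins differed between the proteins. Of the clusters at microRNA genes, 109 of 161 in AGO2 and 39 of 52 in KHSRP lay on hairpins with both arms in RefSeq. Clusters reached at least 5 nt beyond the hairpin in 1 of 109 in AGO2 (0.917%, interval 0.162 to 5.01%) and in 11 of 39 in KHSRP (28.2%, 16.5 to 43.8%). The same share was 1.98% in AGO2 and 56.8% in KHSRP at 0.15 U/ul, and 45.7% in KHSRP at 0.5 U/ul. AGO2 clusters covered a single mature arm in 39 cases on the 5p side and 48 on the 3p side, both arms in 21 and neither in 1. KHSRP clusters covered the 5p arm alone in 7, the 3p arm alone in 14, both in 9 and neither in 9. The intervals of the share that ran past the hairpin did not overlap.

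The deposited mode position, the authors' single summary position of a cluster, lay in the terminal loop in 13 of 109 AGO2 clusters (11.9%, 7.10 to 19.3%) and in 20 of 39 KHSRP clusters (51.3%, 36.2 to 66.1%). It lay in the 5p arm in 44 AGO2 and 5 KHSRP clusters, in the 3p arm in 50 AGO2 and 2 KHSRP clusters, and outside the hairpin in 0 AGO2 and 10 KHSRP clusters. At 0.15 U/ul the loop share was 12.9% in AGO2 (7.68 to 20.8%) and 27% in KHSRP (15.4 to 43%), with intervals that overlap, and KHSRP at 0.5 U/ul had 34.3%. How the mode position was chosen is not given in the sources used here. It fell on a T in 28.2% of AGO2 and 45% of KHSRP clusters, so it was not read as the crosslinked base. Averaged over clusters, the loop made up 16.2% of the covered bases in AGO2 and 23.4% in KHSRP. That order turned at 0.15 U/ul, with 21.1% in AGO2 and 15.9% in KHSRP.

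Positions are counted from 1 at the first base of the hairpin, and 0 and below lie upstream of it. At MIR16-1 the KHSRP reads formed 1 cluster at positions -20 to 12 with 43 reads and another at 21 to 79 with 471 reads, on a hairpin of 89 nt. The larger one began within the 5p arm and ran through the loop and the 3p arm, as the capitals above show. MIR16-2 also had 2 clusters in KHSRP, with 30 reads at -24 to 9 and 138 reads at 36 to 74 of 81 nt. The larger one began in the loop and covered the 3p arm but none of the 5p arm.

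At MIR19B1 AGO2 had 341 reads at 16 to 40 and 559 reads at 42 to 76, each around 1 mature arm. KHSRP had a single cluster at -10 to 73 that joined the upstream flank, the 5p arm, the loop and most of the 3p arm. At MIRLET7A1 AGO2 covered 4 to 77 of 80 nt, and KHSRP had 21 reads at -26 to 5 and 17 reads in a cluster that began at 78 and ran past the end. The KHSRP clusters there lay on both flanks and the AGO2 cluster on the hairpin between them. At MIR301A AGO2 had 3665 reads at 49 to 76, the 3p arm, and KHSRP had 25 reads at 20 to 74.

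**Figure D3:**
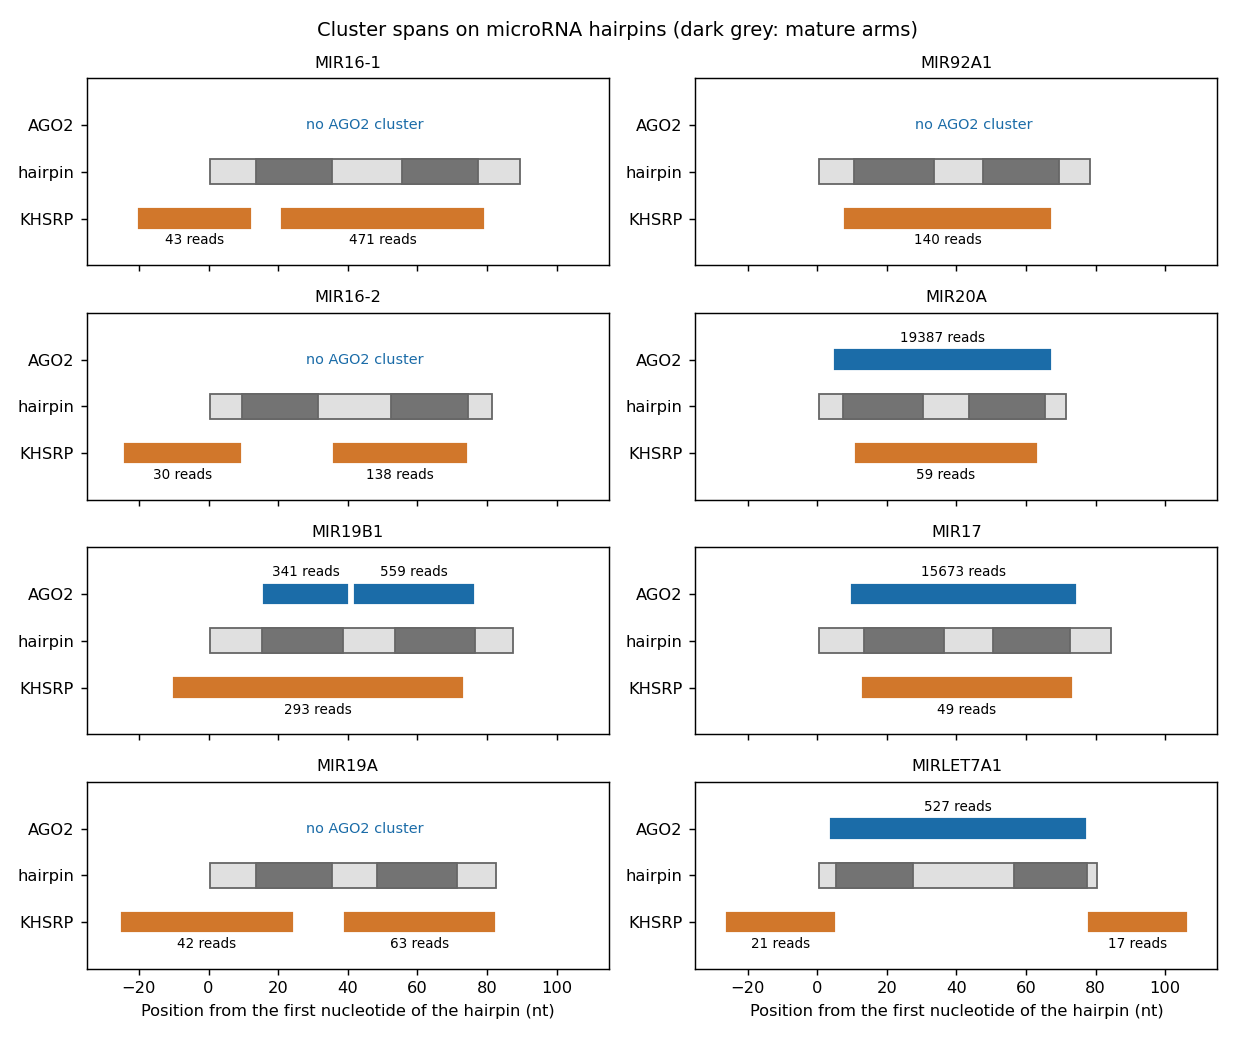
Spans of the AGO2 clusters (above each hairpin) and of the KHSRP clusters (below it) on 8 hairpins, by position in nt from the first base of the hairpin, with the number of reads at each cluster. Dark grey marks the mature arms. KHSRP clusters extend upstream of MIR16-1, MIR16-2, MIR19B1, MIR19A and MIRLET7A1. AGO2 had no cluster at MIR16-1, MIR16-2, MIR19A and MIR92A1, and none of its clusters on the other hairpins shown extends upstream.

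Sites at tRNA genes were the second large class of AGO2 and a minor one of KHSRP. At the positions of 465 RefSeq tRNA genes, AGO2 had 159 clusters over 138 genes with 90695 reads, 27.0% of its reads. KHSRP had 70 clusters over 64 genes with 2450 reads, 1.22%. Genes in both numbered 41, which is 29.7% of those in AGO2 and 64.1% of those in KHSRP. At 0.15 U/ul the shares of reads were 29.8% in AGO2 and 0.124% in KHSRP. Most of these clusters carried no gene name in the deposited annotation, and tRNA genes made up 76.8% of the unannotated reads of AGO2 and 11.9% of those of KHSRP. The tRNA table has no strand and many tRNA genes have near-identical copies, so the gene given for a cluster is its position and not a unique source.

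The cluster sequences show how far a site ran beyond the tRNA gene, which is in capitals with flanks in lower case (hg38, deposited cluster sequences). TRR-TCT1-1 (chr1:93847569-93847664, plus strand) had the largest tRNA cluster of AGO2, which the deposited annotation named RP4-561L24.3. TRL-TAG1-1 (chr17:8120277-8120400, minus strand, in AGO2, and chr17:8120304-8120331 in KHSRP) had a 3' flank in both. TRX-CAT1-1 (chr1:153671284-153671330 in AGO2 and chr1:153671284-153671326 in KHSRP, plus strand) had nearly the same cluster in both.
TRR-TCT1-1 AGO2: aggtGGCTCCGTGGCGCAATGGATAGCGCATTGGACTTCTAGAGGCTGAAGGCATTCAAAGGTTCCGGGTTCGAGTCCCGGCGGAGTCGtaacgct
TRL-TAG1-1 AGO2: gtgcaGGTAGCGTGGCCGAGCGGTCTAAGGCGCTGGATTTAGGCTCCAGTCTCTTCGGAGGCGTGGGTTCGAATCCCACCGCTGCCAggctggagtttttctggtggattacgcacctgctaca
TRL-TAG1-1 KHSRP: CGAATCCCACCGCTGCCAggctggagtt
TRX-CAT1-1 AGO2: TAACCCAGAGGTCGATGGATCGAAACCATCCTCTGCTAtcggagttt
TRX-CAT1-1 KHSRP: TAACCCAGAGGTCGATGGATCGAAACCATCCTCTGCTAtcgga

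TRR-TCT1-1 had 17113 reads in AGO2 and 0 in KHSRP. TRL-TAG1-1 had 4454 reads in the AGO2 cluster and 13 in the KHSRP cluster, and TRI-TAT2-3 had 3995 in AGO2 and 9 in KHSRP. TRX-CAT1-1, summed over its clusters, had 518 in AGO2 and 223 in KHSRP, and TRG-TCC1-1 had 486 in AGO2 and 154 in KHSRP. In share of reads TRX-CAT1-1 and TRG-TCC1-1 were within 2-fold, whereas TRL-TAG1-1 and TRI-TAT2-3 lay far higher in AGO2.

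Precursor tRNAs carry a 5' leader and a 3' trailer that are removed as the tRNA matures. At least 5 nt of leader was covered in 57 of 159 AGO2 clusters (35.8%, 28.8 to 43.6%) and in 2 of 70 KHSRP clusters (2.86%, 0.787 to 9.83%). At least 5 nt of trailer was covered in 73 AGO2 clusters (45.9%, 38.4 to 53.7%) and 23 KHSRP clusters (32.9%, 23.0 to 44.5%). The leader intervals were apart and the trailer intervals overlapped. By isotype, the tRNA reads of AGO2 were led by Arg (19.7%), Thr (18.5%), Leu (13.4%) and Pro (13.3%). Those of KHSRP were led by Lys (25.7%), Ser (10.9%), Tyr (9.55%) and Gly (9.47%). Of the 17862 Arg reads in AGO2, 17113 came from TRR-TCT1-1. At 0.15 U/ul KHSRP was led by Tyr (24%), Cys (14%), Lys (11.8%) and Val (9.68%).

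The other short RNAs split by class. Vault RNAs, parts of the large vault particle, held 9.02% of AGO2 reads and 0.0440% of KHSRP reads. VTRNA1-2 had 13680 reads in AGO2 and 88 in KHSRP, a log2 ratio of 6.53. VTRNA1-3 had 12650 in AGO2 and 0 in KHSRP, and VTRNA1-1 had 3862 in AGO2 and 0 in KHSRP. The 3 named vault RNAs were thus heavily covered in AGO2 and nearly bare in KHSRP. The Y RNA genes RNY3, RNY3P2 and RNY4P18 had 198 reads in AGO2 and 0 in KHSRP.

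U11 and U12, RNAs of the minor spliceosome, were covered in both libraries. RNU11, the U11 RNA that pairs with the 5' splice site of minor introns, had 419 reads in AGO2 and 554 in KHSRP, a log2 ratio of -1.15. RNU12, its partner at the branch point, had 799 in AGO2 and 363 in KHSRP, within 2-fold by share. RNU5D-1, a U5 RNA of both spliceosomes, had 94 in AGO2 and 174 in KHSRP (-1.63). In the 0.15 U/ul pair both signs turned, with log2 ratios of 2.68 for RNU11 and 3.18 for RNU5D-1, and RNU12 had 360 reads in AGO2 and 0 in KHSRP. RNU2-2P, which resembles the U2 RNA of the major spliceosome, was higher in AGO2 at 1.5 U/ul, with 753 in AGO2 and 33 in KHSRP (3.77). Of the snRNA genes, 25 had a cluster in AGO2, 6 in KHSRP and 5 in both.

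Small nucleolar RNAs, which guide base changes in other RNAs, had 29 genes with a cluster in AGO2 and 38 in KHSRP, of which 6 were in both. SNORA33 led AGO2 with 1985 reads and had 0 in KHSRP. SNORD56 had 28 reads in AGO2 and 58 in KHSRP, a log2 ratio of -1.80 that was 3.55 in the 0.15 U/ul pair, and SNORD10 had 72 in AGO2 and 27 in KHSRP. RPPH1, the RNA of RNase P, which trims tRNA leaders, had 166 reads in AGO2 and 123 in KHSRP. RN7SL2, an RNA of the signal recognition particle, had 287 in AGO2 and 76 in KHSRP. Its conversion fraction was low in both, at 0.108 in AGO2 and 0.0658 in KHSRP. RNAs of the mitochondrial genome held 0.0854% of AGO2 reads and 0.354% of KHSRP reads.

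Replication-dependent histone mRNAs, which end in a stem-loop and lack a poly(A) tail, were covered chiefly in AGO2. They held 4.80% of AGO2 reads over 31 genes and 0.0415% of KHSRP reads over 9 genes, with 8 genes in both. HIST1H4H had 3777 reads in AGO2 and 12 in KHSRP, HIST1H3B had 2377 in AGO2 and 0 in KHSRP, and HIST1H1E had 708 in AGO2 and 20 in KHSRP. In AGO2 the reads of HIST1H4H lay to 99.2% in clusters at its stop codon. At 0.15 U/ul histone mRNAs held 4.78% of AGO2 reads and 0.0122% of KHSRP reads.

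Taking all genes, 818 had a cluster in both libraries. They made up 55.5% of the 1474 genes in AGO2 (52.9 to 58.0%) and 11.9% of the 6859 genes in KHSRP (11.2 to 12.7%). Of mRNAs, 755 were in both, 64.3% of those in AGO2 and 12.2% of those in KHSRP. The 0.15 U/ul pair had 1110 genes in common, 75.5% of those in AGO2 and 10.6% of those in KHSRP. The AGO2 genes were also found in FUBP3 at 1.5 U/ul for 1003 of them, or 68.0%.

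Within the 755 shared mRNAs the proteins covered different regions. AGO2 had most of its reads of a gene in the 3' UTR for 376 genes (49.8%) and in introns for 147. KHSRP had most in introns for 486 genes (64.4%) and in the 3' UTR for 200. The leading region was the same in both libraries for 261 of the 755 genes (34.6%), of which 132 were led by the 3' UTR and 116 by introns. The largest combination was a 3' UTR lead in AGO2 with an intron lead in KHSRP, in 217 genes (28.7%). Coding regions led in AGO2 for 138 genes (18.3%) and in KHSRP for 42 (5.56%).

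MBNL1, which encodes a splicing regulator, shows this combination. It had a single AGO2 cluster of 20 reads in the 3' UTR and 17 KHSRP clusters with 111 reads, all in introns. SKI, a repressor of TGF-beta signalling, had 20 AGO2 reads, all in the 3' UTR, and 117 KHSRP reads, of which 69.2% lay in introns. HMGA2, a chromatin protein and a known let-7 target, had 10 AGO2 reads in the 3' UTR and 30 KHSRP reads with none in the 3' UTR. IGF2BP1, also a let-7 target, had 70 AGO2 reads, all in the 3' UTR, and 26 KHSRP reads, of which 42.3% lay there.

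Of the 818 shared genes, 118 had at least 20 reads in each library and were compared by read share. Of these, 19 were past 2-fold in AGO2, 47 past 2-fold in KHSRP and 52 within. By class, 9 of 10 microRNA genes and 5 of 90 mRNAs were past 2-fold in AGO2, and 41 of 90 mRNAs past 2-fold in KHSRP. One of those 5, CTC1, had its clusters at the position of the tRNA gene TRS-AGA2-6, with 246 reads in AGO2 and 42 in KHSRP. The median log2 ratio of the mRNAs was -0.89. The split depends on scaling. With reads of microRNA genes left out of the totals every log2 ratio rises by 0.80, and the calls become 33 in AGO2 and 25 in KHSRP, so 56.9% instead of 28.8% of calls lie in AGO2. With median-of-ratios scaling they are 32 in AGO2 and 27 in KHSRP. The 0.15 U/ul pair had 235 genes to compare, with 118 past 2-fold in AGO2 and 49 in KHSRP, so 70.7% of calls lay in AGO2, and a median log2 ratio of 1.02. The ratios of single genes below are on the total of all reads in clusters.

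Far on the AGO2 side beyond the microRNAs were VTRNA1-2, HIST1H1E, AGO2 itself, RNU2-2P and LINC00324. The AGO2 gene had 633 reads in AGO2 and 20 in KHSRP, a log2 ratio of 4.24 with a counting interval of 3.60 to 4.88. In the AGO2 library 73.9% of its reads lay in coding clusters and 25% in a stop codon cluster, and in the KHSRP library 75% lay in introns. The transgene carries the AGO2 coding sequence, and its part in these reads was not tested. LINC00324, named as a long noncoding RNA, had 459 reads in AGO2 and 26 in KHSRP (3.40). Of these, 290 reads in AGO2 and all 26 in KHSRP lay at the position of the tRNA gene TRW-CCA1-1.

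Far on the KHSRP side was XIST, the long noncoding RNA that coats the inactive X chromosome, with 119 reads in 8 AGO2 clusters and 3495 reads in 129 KHSRP clusters, a log2 ratio of -5.62 with a counting interval of -5.89 to -5.36. PMAIP1, the apoptosis protein NOXA, had 54 reads in AGO2 and 372 in KHSRP (-3.53), chiefly in the 3' UTR in both libraries. ERC1, a scaffold protein, had 492 reads in AGO2 and 2220 in KHSRP (-2.92), all intronic in AGO2 and 99.5% intronic in KHSRP. These 3 RNAs shared their leading region between the libraries. At 0.15 U/ul the log2 ratio was -4.77 for XIST, -1.97 for PMAIP1 and -2.85 for ERC1.

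The other extreme ratios on the KHSRP side were those of mRNAs. ZNF711, a zinc finger protein, had 73 reads in AGO2 and 353 in KHSRP (-3.02), and ARID1B, a chromatin remodelling subunit, had 27 in AGO2 and 109 in KHSRP (-2.76). NBEA, a protein of membrane traffic, had 30 in AGO2 and 123 in KHSRP (-2.78). HNRNPH3 had 38 in AGO2 and 146 in KHSRP (-2.69), SRSF2 had 31 in AGO2 and 103 in KHSRP (-2.48), and DCP2, the decapping enzyme, had 20 in AGO2 and 62 in KHSRP (-2.38). CCNT1, a cyclin of transcription elongation, had 24 in AGO2 and 75 in KHSRP (-2.39), but its log2 ratio was 0.42 in the 0.15 U/ul pair. Of the 72 genes compared at both doses, 47 had the same sign. Of the genes past 2-fold at 1.5 U/ul, 8 of the 9 in AGO2 and 14 of the 32 in KHSRP that could be compared at 0.15 U/ul were past it there too.

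**Figure D4:**
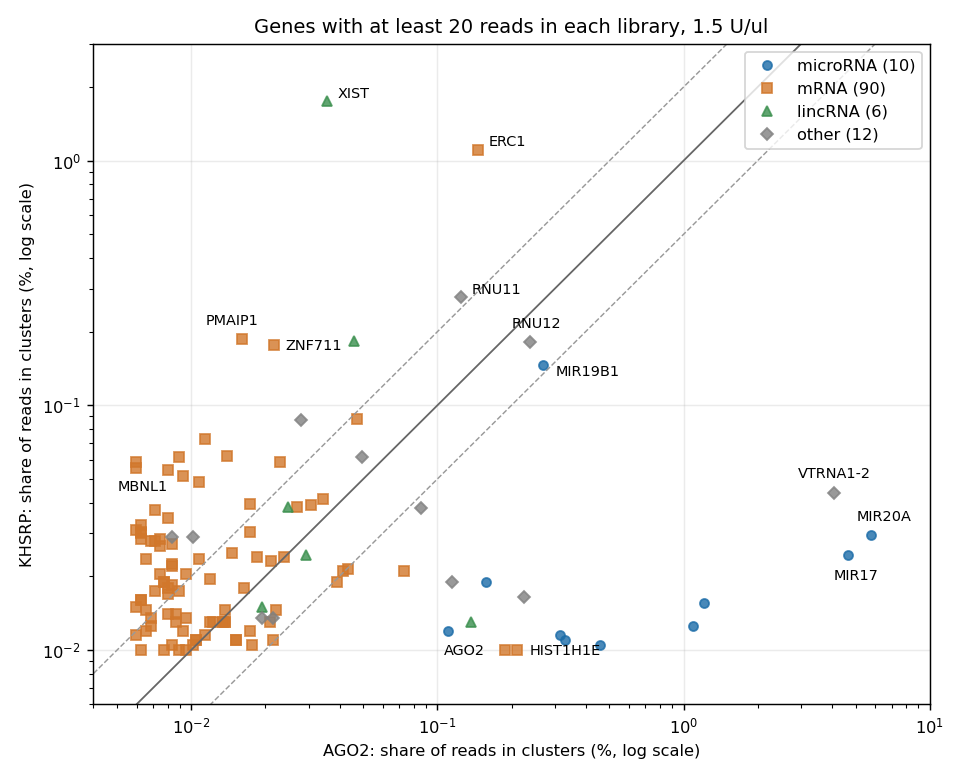
Share of reads in clusters (%, log scales) in AGO2 (horizontal) and KHSRP (vertical) for the 118 genes with at least 20 reads in each library, with 10 microRNA genes as circles, 90 mRNAs as squares, 6 lincRNAs as triangles and 12 others as diamonds. The solid line marks equal shares and the dashed lines 2-fold. MIR20A, MIR17 and VTRNA1-2 lie far to the AGO2 side, and XIST and ERC1 far to the KHSRP side.

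Several of the largest KHSRP genes had no AGO2 cluster and so no ratio. HNRNPH1, a splicing protein, had 0 reads in AGO2 and 1758 in KHSRP, of which 91.3% lay in introns. SON, a nuclear speckle protein, had 0 in AGO2 and 584 in KHSRP, NEAT1, the paraspeckle RNA, had 0 in AGO2 and 558 in KHSRP, and PTBP2, a splicing repressor, had 0 in AGO2 and 425 in KHSRP. HNRNPA2B1 had 12 in AGO2 and 590 in KHSRP. Over all mRNAs, 1174 had a cluster in AGO2 and 6194 in KHSRP. The list of 25 SR and hnRNP protein mRNAs had a cluster for 10 genes in AGO2 and 23 in KHSRP, with 10 in both, and held 0.0447% of AGO2 reads and 2.28% of KHSRP reads. SRSF1 had 11 reads in AGO2 and 372 in KHSRP, both led by the 3' UTR.

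Known microRNA targets were found in both libraries. The lists here stand beside the same 1174 mRNAs of AGO2 and 6194 of KHSRP, with 755 in both. Of a list of 24 such mRNAs, 12 had a cluster in AGO2, 16 in KHSRP and 10 in both. KLHL15, an adaptor for protein degradation, had 158 reads in AGO2, of which 96.2% lay in the 3' UTR, and 176 in KHSRP, of which 75% did. Its log2 ratio was -0.90 and turned to 1.28 in the 0.15 U/ul pair. BCL2L11, the apoptosis protein BIM, had 57 in AGO2 and 15 in KHSRP, led by the 3' UTR in both. CDK6, a cell cycle kinase, had 26 in AGO2, all in the 3' UTR, and 38 in KHSRP, of which 42.1% lay there. The list of 18 mRNAs with AU-rich elements, whose decay KHSRP is known for, had 2 genes in AGO2, 10 in KHSRP and 1, KHSRP itself, in both. The KHSRP gene had 6 reads in AGO2 and 100 in KHSRP. In the KHSRP library 43% of them lay in coding clusters and 44% in the 3' UTR. The cells of that library carried a KHSRP transgene, and its part in these reads was not tested. JUN had 0 reads in AGO2 and 37 in KHSRP, MYC had 0 in AGO2 and 25 in KHSRP, and VEGFA had 31 in AGO2 and 0 in KHSRP, all in 3' UTRs. Of the 49 ribosomal protein mRNAs with a cluster in either library, 24 had one in AGO2, 43 in KHSRP and 18 in both. MALAT1, a nuclear speckle RNA, had 154 reads in AGO2 and 367 in KHSRP, a higher share in KHSRP, but in the 0.15 U/ul pair it had 114 in AGO2 and 60 in KHSRP, a log2 ratio of 3.80.

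Shared genes seldom meant shared sites. With an overlap of 1 nt or more required, on 1 strand, there were 155 pairs of clusters, which took in 147 AGO2 clusters (6.19%, 5.29 to 7.23%) with 35.6% of AGO2 reads, and 149 KHSRP clusters (0.538%, 0.458 to 0.631%) with 2.81% of KHSRP reads. Of the 755 shared mRNAs, 36 (4.77%) had an overlapping pair. On the opposite strand 2 AGO2 clusters overlapped a KHSRP cluster. By class, 22 of 161 microRNA clusters of AGO2 (13.7%, 9.20 to 19.8%) and 40 of 159 tRNA clusters (25.2%, 19.1 to 32.4%) were in a pair, against 23 of 701 in 3' UTRs (3.28%, 2.2 to 4.88%) and 2 of 257 in coding regions. In the 0.15 U/ul pair, where KHSRP had 178339 clusters, 346 of 2425 AGO2 clusters (14.3%) overlapped a KHSRP cluster. The part of the number of KHSRP clusters in this was not tested.

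FUBP3 at 1.5 U/ul gave another order, in a library of 79916 clusters. FUBP3 had 16601 clusters in 3' UTRs and 6 at microRNA genes, against 2430 and 52 in KHSRP. AGO2 clusters overlapped FUBP3 clusters at 140 of 701 in 3' UTRs (20.0%, 17.2 to 23.1%), at 30 of 159 tRNA clusters (18.9%) and at 0 of 161 microRNA clusters (upper bound 2.33%). Overlap with KHSRP was thus higher at microRNA genes and lower in 3' UTRs than overlap with FUBP3, by intervals that do not meet. The shares were not scaled to the number of clusters each library had in a class, and its part was not tested.

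The pairs with the highest shares in both were short RNAs. At VTRNA1-2 the AGO2 cluster chr5:140718924-140719014 and the KHSRP cluster chr5:140718957-140719013 shared 57 nt. At RNU11 the clusters chr1:28648622-28648735 in AGO2 and chr1:28648621-28648731 in KHSRP shared 110 nt, nearly the whole of each. At RNU12 chr22:42615309-42615397 in AGO2 and chr22:42615319-42615394 in KHSRP shared 76 nt. The longest overlap among these 3 was thus at RNU11.

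ERC1 held 13 of the overlapping pairs, all in introns. All 13 lay within the stretch chr12:1200957-1204055. The most covered lay at chr12:1200967-1201119 in AGO2 with 111 reads and chr12:1200957-1201172 in KHSRP with 337 reads, and shared 153 nt. PMAIP1 held 4 pairs in its UTRs, among them chr18:59904092-59904131 in AGO2 with 16 reads and chr18:59904020-59904118 in KHSRP with 122 reads. KLHL15 held no pair, although both libraries covered its 3' UTR.

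Conversion was lower in AGO2. The median share of reads with a T-to-C conversion in a cluster was 0.778 in AGO2 and 1 in KHSRP, where many clusters held few reads. At microRNA genes it was 0.571 in AGO2 and 0.870 in KHSRP, at tRNA genes 0.632 in AGO2 and 0.861 in KHSRP, and in 3' UTRs 0.845 in AGO2 and 1 in KHSRP. Over all reads in clusters, 60.3% carried a conversion in AGO2 and 90.1% in KHSRP. With at least 10 reads in the cluster the medians were 0.666 in AGO2 and 0.8 in KHSRP.

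Matches to microRNA seeds set the 3' UTR clusters of the proteins apart. The seeds of 16 families were searched, taken as expressed in these cells from earlier results of these data. A match of 7 nt to any of them was found in 30.9% of AGO2 3' UTR clusters (27.6 to 34.4%) and in 3.54% of KHSRP 3' UTR clusters (2.87 to 4.35%). Median cluster lengths were 27 nt in AGO2 and 30 nt in KHSRP. Matches to 3 background families were also more frequent in AGO2. They were in 4 of 708 AGO2 3' UTR clusters (0.565%, 0.220 to 1.44%) and 2 of 2430 of KHSRP (0.0823%, 0.0226 to 0.300%). C made up 23.2% of the bases of AGO2 3' UTR clusters and 13.3% of those of KHSRP. The part of base composition in the seed matches was not tested. In coding regions the 16 families matched in 23.6% of AGO2 clusters and 2.12% of KHSRP clusters, and in introns in 5.29% of AGO2 clusters (3.41 to 8.12%) and 3.33% of KHSRP clusters (3.09 to 3.59%). The intron intervals overlapped and those of the 3' UTR and coding clusters did not.

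By family, the miR-17 seed matched in 6.21% of AGO2 and 0.165% of KHSRP 3' UTR clusters, the miR-15/16 seed in 6.07% of AGO2 and 0.412% of KHSRP clusters, and the miR-19 seed in 5.65% of AGO2 and 0.123% of KHSRP clusters. The miR-92/25 seed matched in 4.24% of AGO2 clusters and 0% of KHSRP clusters, and the let-7 seed in 3.53% of AGO2 and 0.0412% of KHSRP clusters. Of the genes that carry these seeds, MIR16-1, MIR16-2 and MIR92A1 had no AGO2 cluster, whereas MIR15A had 605 AGO2 reads and MIR32, of the miR-92/25 family, 2423. The miR-181 seed did not show this order, with 0.847% of AGO2 (0.389 to 1.84%) and 0.988% of KHSRP clusters (0.665 to 1.47%). Nor did the miR-101 seed, with 0.282% of AGO2 (0.0775 to 1.02%) and 0.412% of KHSRP clusters (0.224 to 0.756%). The miR-21 seed was in 0% of AGO2 (upper bound 0.540%) and 0.206% of KHSRP clusters (0.0879 to 0.481%). For each of these seeds the intervals of the libraries overlapped.

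**Figure D5:**
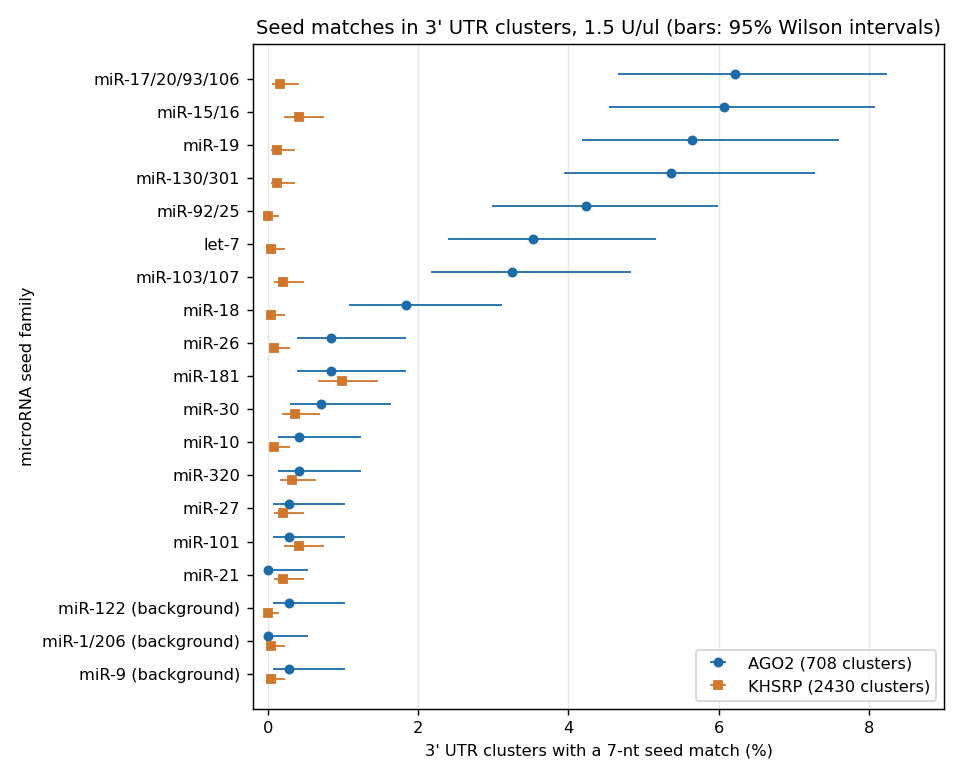
Share (%) of 3' UTR clusters with a 7-nt seed match, by microRNA family, circles for 708 AGO2 clusters and squares for 2430 KHSRP clusters, with 95% Wilson intervals as bars. The miR-17, miR-15/16, miR-19, miR-301a and miR-92/25 families lie between 4.24% and 6.21% in AGO2 and at or below 0.412% in KHSRP.

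Short U-rich words went the other way. TTGT was in 12.7% of AGO2 and 35.1% of KHSRP 3' UTR clusters, TGTAT in 3.25% of AGO2 and 15.1% of KHSRP, GTTTG in 2.68% of AGO2 and 7.24% of KHSRP, and TATTTAT, an AU-rich element word, in 0.141% of AGO2 and 1.98% of KHSRP. GGGT did not separate these 3' UTR clusters, with 10.2% of AGO2 (8.15 to 12.6%) and 9.05% of KHSRP (7.98 to 10.3%). In other sets it was higher in AGO2. Over all clusters it was in 14.8% of AGO2 (13.5 to 16.3%) and 9.82% of KHSRP (9.47 to 10.2%). In introns the shares were 20.3% in AGO2 and 9.40% in KHSRP, and in 3' UTRs at 0.15 U/ul 9.37% and 5.66%. In coding clusters TTGT was in 5.14% of AGO2 and 11.6% of KHSRP, but TGTAT in 3.08% of AGO2 and 0.963% of KHSRP. Words were searched on the strand of the cluster and can overlap. T made up 27.9% of the bases of AGO2 3' UTR clusters and 37.2% of those of KHSRP, and its part in the U-rich words was not tested.

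A few 3' UTR sites combined an overlap of both libraries with a seed match in the AGO2 cluster. Such a match was in 6 of the 23 AGO2 3' UTR clusters that overlapped KHSRP (26.1%, 12.5 to 46.5%). That is near the 30.9% of all AGO2 3' UTR clusters. The sites below are places where both proteins had reads on or beside a microRNA site. The seed match is in capitals (hg38, deposited AGO2 cluster sequence). The sites are at chr14:105010259-105010288 for CDCA4 and chr14:103519811-103519840 for CKB, both with a miR-15/16 match, and at chr5:149494871-149494897 for CSNK1A1 with a miR-17 match, all on the minus strand.
CDCA4: ggaagtagcatTGCTGCTggatgagaaacg
CKB: gcccTGCTGCTtcctaacttattgcctggg
CSNK1A1: tactatgcacttagactatGCACTTTt

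CDCA4, a cell division protein, had 52 AGO2 reads and 10 KHSRP reads at this site, with 24 nt shared and the seed match inside the KHSRP cluster too. CKB, a creatine kinase, had 34 AGO2 reads and 9 KHSRP reads, with 7 nt shared and the match outside the KHSRP cluster. CSNK1A1, a kinase of the Wnt pathway, had 16 AGO2 reads and 7 KHSRP reads, with 15 nt shared and the match inside both. RGS16, a regulator of G protein signals, had a pair with 16 AGO2 reads and 5 KHSRP reads and matches to let-7 and miR-181 outside the KHSRP cluster. These are single small clusters in 1 library each.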

How the data were processed

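Each deposited table listed the clusters of 1 library with the authors' counts of reads, their counts of distinct sequences, and T-to-C conversions as a fraction of reads. Per the submitters' processing notes, bcl2fastq 2.20.0, cutadapt 1.15 and hg38 were used. The aligner, cluster caller, annotation and treatment of reads with several matches are not given in the sources used here. Raw counts were summed per gene and divided by all reads in clusters. Gene ratios needed 20 reads in each library and were called past 2-fold. No count model was run, since each protein had 1 library. Overlap meant 1 nt or more on 1 strand, a tRNA site at least 10 nt, and a flank at least 5 nt. Hairpins came from RefSeq GRCh38.p14, and cluster bases equalled hairpin bases at 4590 of 4590 positions in AGO2 and 1540 of 1540 in KHSRP. Seeds were positions 2 to 8. Genes named were the most covered 10 of each library, the extreme 12 ratios each way, shared microRNA genes, leading overlaps and list members. Members and lists were chosen with earlier results of these data known. The steps were tested on simulated data. Alternatives changed read minima, scaling, weights, overlap, RNase dose and protein. Software was Python 3.11.15, numpy 2.4.6, pandas 2.3.3, scipy 1.17.1 and matplotlib 3.10.9.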

Additional observations from a re-analysis of the deposited data

How the results depend on the processing

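Among recomputed values of the 24 genes with the most extreme ratios, 41 stayed within the counting interval, 64 moved and 1, CCNT1, changed sign (0.42 in the 0.15 U/ul pair). Other genes given in the text turned there too, among them RNU11 (2.68), RNU5D-1 (3.18), MALAT1 (3.80), SNORD56 (3.55), RPPH1 (2.54) and KLHL15 (1.28), and 47 of 72 genes kept their sign. Of 62 recomputed summary values 7 stayed and 55 moved, as follows. With clusters of at least 10 reads, the 3' UTR share of clusters was 20.1% in AGO2 and 17.5% in KHSRP, the KHSRP intron share 63.6%, and the median conversion 0.666 in AGO2 and 0.8 in KHSRP. Weighted by distinct sequences, 3' UTRs held 2.75% in AGO2 and 12.1% in KHSRP, introns 4.31% in AGO2 and 65.7% in KHSRP, and microRNA genes 37.2% in AGO2 and 1.35% in KHSRP. In the 0.15 U/ul pair, AGO2 clusters lay to 38.7% in 3' UTRs and 10.5% in introns, KHSRP clusters to 79.1% in introns, microRNA genes held 31.5% of AGO2 and 0.0882% of KHSRP reads, 75.5% of AGO2 genes were shared, 118 genes were higher in AGO2 and 49 in KHSRP of 235 compared, with a median log2 ratio of 1.02, 346 AGO2 clusters overlapped, and seed matches were in 20.9% of AGO2 and 5.11% of KHSRP clusters. By sequence match to hairpins there were 33 shared microRNA genes, with 40.6% of AGO2 and 1.33% of KHSRP reads. With genes whose mature sequence has 1 place alone, a choice made after seeing the data, 12 were shared. Shared genes numbered 298 (37.9% of AGO2) at 10 reads, 118 (26.3%) at 20, 21 (9.01%) at 50, and 483 (35.4%) with 3 distinct sequences. With FUBP3 in place of KHSRP, 68.0% of AGO2 genes were shared and 261 AGO2 clusters overlapped. Genes past 2-fold in AGO2 and KHSRP numbered 44 and 149 at 10 reads, 3 and 9 at 50, 33 and 25 without microRNA reads, 32 and 27 by median-of-ratios, 1 and 14 by distinct sequences, and 0 and 7 without each gene's largest cluster. Overlapping AGO2 clusters numbered 95 at 50% of each cluster, 79 at 10 reads, 62 among the 1000 largest, and 2 on the opposite strand. Seed matches over all clusters, 15.5% in AGO2 and 3.31% in KHSRP, were 26.7% in AGO2 and 11.6% in KHSRP for 6-nt matches, and 30.9% in AGO2 and 3.54% in KHSRP in 3' UTR clusters. Shares and ratios rest on few clusters, since most genes past 2-fold in AGO2 held 1 cluster, and KHSRP clusters held 6 reads at the median. The causes of these moves were not tested.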
